A study of Mus musculus with 2 samples.

Results

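Macrophages and other myeloid cells made up 312 of the 6272 filtered cells in a single-cell RNA sequencing (scRNA-seq) experiment on mouse embryos at E13.5. Members were chosen by their own counts: a filtered cell was selected on at least 1 unique molecular identifier (UMI, a tag that marks 1 captured RNA molecule) in at least 4 of 10 blood-cell genes, namely Ptprc, Tyrobp, Fcer1g, Csf1r, C1qa, C1qb, Spi1, Laptm5, Coro1a and Mpo. Filtered cells had more than 2000 and fewer than 9000 detected genes and under 10% mitochondrial UMIs. Members were then split by UMIs of C1qa, Csf1r and Mpo into 135 C1qa/Csf1r cells, 84 Mpo cells and 93 remaining members. These 10 genes define the cells, so their levels are given as a description only.

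The study asked how an activating PI3K mutation acts in the Isl1 lineage. The control library was Isl1-Cre;R26R-eYFP and the mutant library was Isl1-Cre;R26R-eYFP;Pik3caH1047R. In both, Cre from the Isl1 locus switched on a yellow fluorescent reporter in Isl1-expressing cells and their descendants, and in the mutant it also switched on the H1047R form of the PI3K catalytic subunit. The upper body above the liver of 3 pooled embryos per genotype was dissociated, reporter-positive cells were sorted, and a 10x Genomics library was made from each pool, labelled as pharyngeal arch tissue. With 1 library per genotype there was no replicate and no test could be made: every value below compares these 2 libraries, and each 95% interval covers counting error alone. The fluorescent reporter was not analysed here, so neither recombination nor mutant expression was followed in single members.

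Tissue macrophages of the mid-gestation embryo derive largely from yolk sac and fetal liver progenitors, depend on the receptor Csf1r and clear dying cells with help from the complement component C1q. Mpo, the myeloperoxidase of primary granules, marks earlier progenitors committed to the granulocyte and monocyte branches. Macrophages are also known as sources of chemokines, small secreted proteins that draw leukocytes to a tissue.

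The control library held 4505 deposited barcodes with 66935720 UMIs and the mutant library 5357 with 73915525. After filtering, 2783 control and 3489 mutant cells were left, with a median of 20412 and 16839 UMIs per cell. Members numbered 164 in the control, or 5.89% of filtered cells (95% Clopper-Pearson interval 5.05 to 6.83), and 148 in the mutant, or 4.24% (3.60 to 4.96). A further 10 control and 13 mutant barcodes met the gene rule but failed the filter. The libraries shared 28 barcode sequences, of which 0 were members. Just outside the rule, 9 control and 19 mutant cells carried UMIs of 3 of the 10 genes, with a median of 7 and 6 UMIs over those genes. Just inside it, 8 control and 15 mutant cells carried 4 of them, with a median of 29.5 and 12.

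The markers fitted a myeloid label for most but not all members. In control C1qa/Csf1r cells the 15 macrophage markers outside the rule, among them C1qc, Mrc1, Cx3cr1 and Apoe, summed to 11143 UMIs per 1000000 (CPM), against 102 CPM in the other filtered cells of the same library. In the mutant they summed to 8102 and 164 CPM. The 12 late granule genes of maturing neutrophils summed to 857 CPM in control Mpo cells, led by S100a9 at 482 CPM, with at least 3 of them in 4 of 17 cells, and to 83.5 CPM in mutant Mpo cells, with at least 3 in 7 of 67. Of this list Ngp, a secondary granule protein, and Retnlg had 0 UMIs in all members of both libraries. The remaining members mixed several blood-cell types, described last. Some members also carried at least 4 of 10 markers of another tissue. Among C1qa/Csf1r cells these were 11 of 98 control and 2 of 37 mutant cells, and among Mpo cells 5 of 17 and 17 of 67. Among remaining members they were 9 of 49 control and 13 of 44 mutant cells. Endothelial markers accounted for 4 and 13 of these Mpo cells.

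The sexes of the pooled embryos differed between the libraries. By Xist, which silences 1 X chromosome in females, and the Y-linked genes, 161 of 164 control members (98.2%) were female-like and 0 were male-like. In the mutant, 45 of 148 (30.4%) were female-like and 82 (55.4%) male-like. Sex and genotype therefore overlapped, and medians in female-like C1qa/Csf1r cells alone are given below with the lists for which they were computed. They were not computed for Mpo cells, of which 17 control and 15 mutant cells were female-like. Isl1 itself had 4 UMIs in control and 2 in mutant C1qa/Csf1r cells, and 0 and 12 in Mpo cells. Pik3ca was at 26.2 and 23.3 CPM in C1qa/Csf1r cells and at 20.6 and 29.5 CPM in Mpo cells. The mutant transgene had no separate count.

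The make-up of the members differed between the libraries. C1qa/Csf1r cells were 98 of 164 control members, or 59.8% (51.8 to 67.3), and 37 of 148 mutant members, or 25% (18.3 to 32.8). Mpo cells were 17 control members, or 10.4% (6.16 to 16.1), and 67 mutant members, or 45.3% (37.1 to 53.7). Remaining members took 29.9% and 29.7%. These intervals cover the drawing of cells from each library and not the spread between embryos or libraries. With each member reduced at random to 5000 UMIs (2 control and 3 mutant members were shallower and dropped), C1qa/Csf1r cells were 46.9% and 20.7% of members and Mpo cells 7.41% and 35.9%, so the order of the libraries was the same at equal depth.

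**Figure D1:**
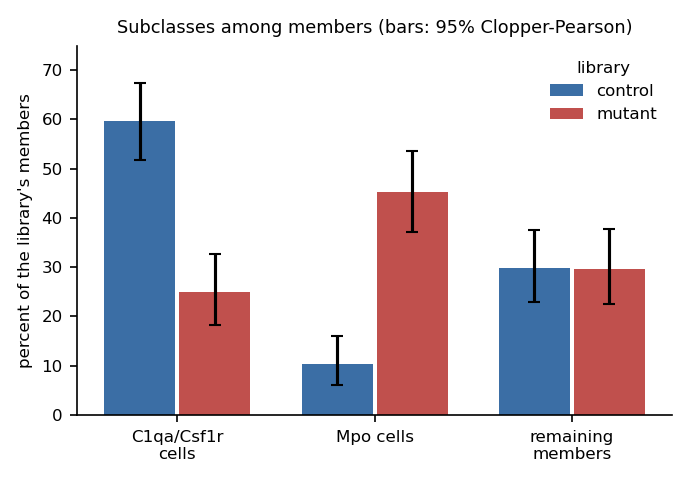
Share of members (y axis, percent) that were C1qa/Csf1r cells, Mpo cells or remaining members in the control and mutant libraries. Bars start at 0 and error bars are 95% Clopper-Pearson intervals. The C1qa/Csf1r share was 59.8% in the control and 25% in the mutant, and the Mpo share 10.4% and 45.3%.

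Other cells of the libraries differed too. Among filtered cells outside the members, 54 mutant and 0 control cells carried at least 4 of 10 liver markers, and these markers summed to 1828 CPM in the mutant against 7.70 CPM in the control, with Afp, the fetal liver protein alpha-fetoprotein, the most abundant at 676 CPM in the mutant. No member carried 4 liver markers. In Mpo cells the list summed to 80.5 CPM in the control and 51.2 CPM in the mutant, 97.9% and 64.9% of it from Trf, the transferrin gene, with Fgb, Fga, Serpina1a and Ahsg at 0 in both. The fetal liver is a blood-forming organ at this age, and the part of its tissue in the Mpo share was not tested.

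The subclasses were cut from UMIs of C1qa, Csf1r and Mpo, and some cells carried both sides. UMIs of C1qa and Mpo met in 4 control and 4 mutant members, and those of Csf1r and Mpo in 10 and 26. Near the limit of 2 UMIs, 10 control and 4 mutant C1qa/Csf1r cells had 2 to 4 UMIs of their genes, as did 4 and 10 Mpo cells. In filtered cells outside the members C1qa was found in 0.496% of control and 0.210% of mutant cells and Mpo in 0.687% and 0.958%. Depth was alike across libraries in C1qa/Csf1r cells, with a median of 25411.5 and 25414 UMIs per cell, and was 35665 and 31852 in Mpo cells.

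**Figure D2:**
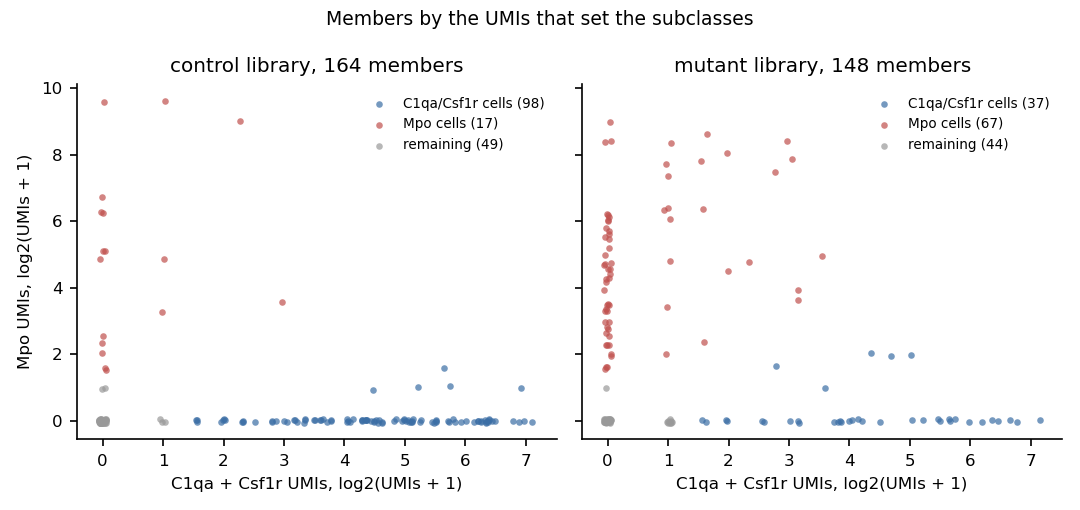
UMIs of C1qa plus Csf1r (x axis) against UMIs of Mpo (y axis) in each member, on a log2(UMIs + 1) scale, with 1 panel per library and 1 point per cell coloured by subclass. Most cells lie near 1 of the axes, with 98 control and 37 mutant cells assigned by C1qa and Csf1r and 17 and 67 by Mpo.

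C1qa/Csf1r cells carried the macrophage programme and Mpo cells a progenitor programme in both libraries. Genes were compared within each library and ranked by the smaller of the 2 log2 ratios, which was set to 0 where the libraries differed in direction. Of 9311 genes with at least 20 UMIs, 652 (7.00%) were at least 2-fold higher in C1qa/Csf1r cells in both libraries and 401 (4.31%) at least 2-fold lower. Since the subclasses were themselves selected on UMIs, these counts are descriptive. All 15 macrophage markers were past 2-fold, with a median log2 ratio of 3.81, as were 14 of 14 phagocytic receptors, 19 of 23 lysosomal genes and 9 of 10 chemokines. On the Mpo side, 8 of 8 stem and progenitor genes were past 2-fold at a median of −4.59, and 6 of 9 early granule genes. Of 26 proliferation genes, 12 were higher and 10 lower in both libraries. Their median was 0.00, a value that includes genes set to 0, with 0 genes past 2-fold in either direction.

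With the rule genes left out and at least 100 CPM required, the leading gene of the C1qa/Csf1r side was Mrc1, a mannose receptor of tissue macrophages, at 863 and 357 CPM in control and mutant C1qa/Csf1r cells against 3.43 and 3.23 CPM in Mpo cells. C1qc, the third chain of C1q, stood at 956 and 905 CPM against 0 and 9.69 CPM. Aif1, an actin-binding protein of macrophages, stood at 312 and 311 CPM against 5.14 and 6.92 CPM. All 3 genes were thus at or near 0 in Mpo cells of both libraries. The first 10 also held Cd83, Fcrls, Ccl2, Ms4a4a, Stab1, Maf and Pf4, with smaller log2 ratios between 5.21 and 5.96.

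Ranked in the same way, the Mpo side was led by Adgrl4, an adhesion receptor, at 106 and 234 CPM in control and mutant Mpo cells against 0.769 and 0.933 CPM in C1qa/Csf1r cells. Kit, the stem cell factor receptor, was at 123 and 162 CPM against 1.92 and 0 CPM, and Myb, a transcription factor of blood progenitors, at 233 and 159 CPM against 8.46 and 7.47 CPM. Cpa3, a mast cell protease, was at 362 and 116 CPM against 0 in C1qa/Csf1r cells of both libraries. The side thus held progenitor and mast cell genes, in both libraries. Angpt1, Ctla2a, Adgrg1, Hmga2, Ifitm1 and Ikzf2 completed the first 10, with smaller log2 ratios from −5.61 to −4.29.

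Secreted chemokines were lower in C1qa/Csf1r cells of the mutant library. The 25 genes of the chemokine list summed to 11696 CPM (11565 to 11828) in the control and 1825 CPM (1745 to 1908) in the mutant. Per cell, the list ran from 1.27 through a median of 68.7 to 508 UMIs per 10000 in the 98 control cells, and from 0 through 10.5 to 81.8 in the 37 mutant cells. The ranges of single cells overlapped, and the control median lay near the top of the mutant range. Of the 10087 genes with at least 20 UMIs in these cells, 2.93% (296) were at least 2-fold higher in the mutant and 9.63% (971) at least 2-fold lower, with a median log2 ratio of −0.08 and 5705 lower in all. Of the 15 chemokines measured, 14 were lower in the mutant, 11 of them by at least 2-fold, and the median log2 ratio was −2.74. In female-like cells alone this median was −2.38. Remaining members did not share the fall per cell. There the list had a median of 1.84 UMIs per 10000 in the control and 2.12 in the mutant. The upper quartiles were 9.29 and 20.1. Of 7 chemokines measured in remaining members, 5 were lower in the mutant and 2 higher, at a median log2 ratio of −0.63.

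**Figure D3:**
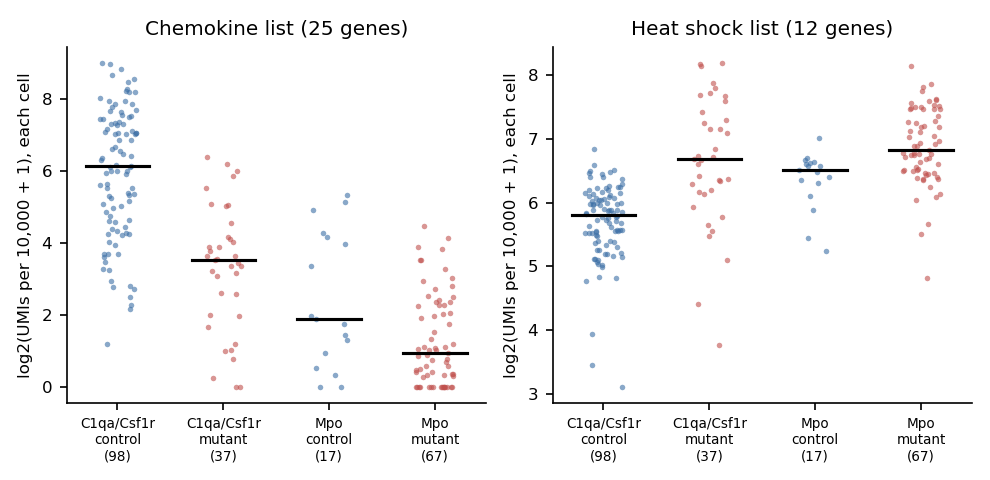
UMIs of the chemokine list and of the heat shock list per 10000 UMIs in each C1qa/Csf1r and Mpo cell, on a log2(value + 1) scale, by library; each point is a cell and lines are medians. In C1qa/Csf1r cells the chemokine median was 68.7 in the control and 10.5 in the mutant, and the heat shock median 54.9 and 102.

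CC chemokines that attract monocytes were far below the control. Ccl2 (GRCm38 chr11:82035571-82037453), the main ligand of the receptor Ccr2, was at 2293 CPM (2235 to 2352) in the control, with UMIs in 82 of 98 cells, and at 138 CPM (117 to 162) in the mutant, in 14 of 37 cells. The log2 ratio was −4.05 (−4.30 to −3.82). Its neighbour Ccl7 (chr11:82045712-82047525), a second Ccr2 ligand, was at 769 CPM in the control, from 1999 UMIs in 48 cells, and at 4.67 CPM in the mutant, from 5 UMIs in 4 cells, a log2 ratio of −7.36 (−8.99 to −6.14). Ccl7 had the lowest log2 ratio of all 10087 genes. Ccl12 (chr11:82101845-82103400), which lies further along the same cluster, was at 184 and 23.3 CPM, with log2 ratios from −5.32 to −2.58 over the alternatives. In other filtered cells 10 of 17 measured chemokines were higher at a median of 0.65, where 9919 of all 20351 genes were higher, and Ccl2 was found in 4.47% of the control and 1.89% of the mutant, and Ccl7 in 1.87% and 1.32%. At 5000 UMIs per cell, Ccl7 was found in 42.7% of control and 2.70% of mutant C1qa/Csf1r cells.

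Other CC chemokines followed the same direction. Ccl4 (chr11:83662584-83664683) was at 2748 CPM in 85 control cells and 399.5 CPM (363 to 439) in 22 mutant cells. Ccl3 (chr11:83647844-83649355), its neighbour, was at 1574 CPM in 90 control cells and 550 CPM in 23 mutant cells, a log2 ratio of −1.52. Ccl3 was thus still found in most mutant cells. Ccl24, an eotaxin, was at 246 and 66.3 CPM. Among the chemokines that were lower, the smallest differences were those of Ccl6 (91.9 and 53.2 CPM), Ccl9 (139 and 75.6 CPM) and Cxcl14 (log2 ratio −0.22), and Cxcl16 was the exception in direction, at 14.6 CPM in the control and 21.5 CPM in the mutant, with 19 of its 23 mutant UMIs in 1 cell.

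Among the CXC chemokines, Cxcl2, a neutrophil attractant, was at 2664 CPM (2602 to 2728) in the control with UMIs in 74 of 98 cells, and at 355 CPM (320 to 392) in the mutant in 9 of 37 cells. At 5000 UMIs per cell it was found in 70.8% and 16.2% of cells. A single mutant cell held 201 of the 380 mutant UMIs. Cxcl1, a ligand of the same receptor, was at 168 CPM in 31 control cells and 10.3 CPM in 3 mutant cells, and its log2 ratio of −4.03 ran from −7.39 in cells with a C1qa UMI to −1.47 in thinned cells. Cxcl10, an interferon-induced ligand of Cxcr3, was at 85.0 and 9.33 CPM. Pf4, which macrophages share with platelets, was at 685 and 103 CPM. The Cxcl2 promoter is shown because it held matches to the binding motif of NF-kB, a factor that acts on many inflammatory genes. Capitals mark matches to GGGNNTTNCC on either strand in the 250 bases before the start (RefSeq, GRCm38.p6 chr5:90903649-90903898, plus strand).
Cxcl2: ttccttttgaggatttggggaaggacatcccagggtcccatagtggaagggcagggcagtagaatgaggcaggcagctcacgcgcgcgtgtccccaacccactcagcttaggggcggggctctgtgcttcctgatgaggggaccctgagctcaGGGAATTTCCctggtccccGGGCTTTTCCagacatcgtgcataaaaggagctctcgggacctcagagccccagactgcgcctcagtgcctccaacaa
The window held 2 such matches. The motif occurred in 4.11% of 32851 RefSeq promoter windows of this length and in 6 of the 18 chemokine windows among them. Ccl2, Ccl7 and Ccl4 had no window in this set. The windows of Ccl12 and Ccl3 held 0 matches to it. The motif was searched after the values were known, and a match is a description of the letters, not a bound site.

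**Figure D4:**
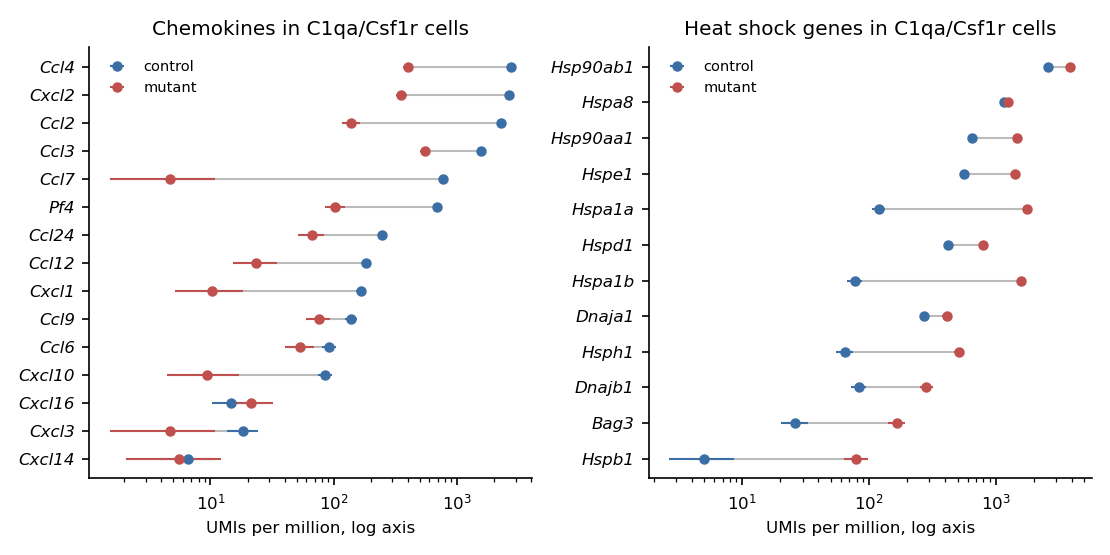
Level (CPM, log axis) of chemokine and heat shock genes in C1qa/Csf1r cells of the control and mutant libraries, with 95% exact Poisson intervals. Chemokines such as Ccl2 (2293 and 138 CPM) lie lower in the mutant and heat shock genes such as Hspa1b (76.9 and 1596 CPM) higher.

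Other cytokines differed gene by gene. Of 19 measured cytokines and growth factors, 14 were lower in the mutant, 7 of them by at least 2-fold, and 2 were at least 2-fold higher. The median log2 ratio was −0.68 (−0.73 in female-like cells) and ran from −0.91 to −0.098 over the alternatives. The list summed to 2734 CPM in the control and 2683 CPM in the mutant. Il1b, a pro-inflammatory cytokine, was at 364 CPM in 44 control cells and 53.2 CPM in 5 mutant cells, and Tnf at 285 CPM in 73 cells and 37.3 CPM in 13. Osm, an Il6-family cytokine, was at 28.9 and 2.80 CPM. Vegfa, the endothelial growth factor, had 52 UMIs in the control and 1 in the mutant, a log2 ratio of −4.42, whereas in other filtered cells it was at 51.5 CPM in the control and 129 CPM in the mutant. Mif, the macrophage migration inhibitory factor made by many cells, carried most of the list in the mutant, at 664 and 1570 CPM in control and mutant C1qa/Csf1r cells. It was also higher in the other filtered cells of the mutant, at 1149 and 2108 CPM. Igf1, a trophic factor, was at 61.2 and 31.7 CPM, and Il10, an anti-inflammatory cytokine, at 5.77 and 13.1 CPM from 15 and 14 UMIs. In remaining members 11 of 17 measured genes of this list were lower in the mutant, at a median log2 ratio of −1.40. Of these 17 genes, 9 were at least 2-fold lower and 1 at least 2-fold higher.

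Genes that often accompany macrophage activation were lower with the chemokines. All 11 measured interferon response genes were lower in the mutant, 6 of them at least 2-fold, with a median log2 ratio of −1.07 (−1.94 in female-like cells), among them Ifi27l2a (184 and 42.9 CPM) and the ubiquitin-like protein Isg15 (53.1 and 14.9 CPM). Of 19 immediate early genes, 16 were lower and 10 at least 2-fold lower, with a median of −1.13 (−0.52 in female-like cells). Ier3, an NF-kB target, was at 999 CPM in the control and 127 CPM in the mutant, and the growth-response factor Egr1 at 601 and 195 CPM. Jun and Jund, parts of AP-1, were exceptions with log2 ratios of 0.34 and 0.66. In other filtered cells the medians of the interferon and immediate early lists were 0.21 and 0.01. The immediate early list was also lower in the other members, at a median of −0.62 in Mpo cells and −0.86 in remaining members. Its fall was thus not particular to C1qa/Csf1r cells. The interferon medians there were −0.03 from 4 measured genes and −0.54 from 7.

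Markers of perivascular-type macrophages were lower in the mutant as well. All 7 measured perivascular-type genes were lower, 5 at least 2-fold, with a median log2 ratio of −1.28 (−1.78 in female-like cells). Mrc1 was at 863 and 357 CPM, F13a1, the coagulation factor XIII A chain, at 1313 and 613 CPM, and Lyve1, a hyaluronan receptor, at 375 CPM in 28 control cells and 84.9 CPM in 6 mutant cells. Among 6 measured monocyte genes, 4 were at least 2-fold lower, at a median of −1.46, but this median was −0.66 in female-like cells and 0.070 in cells with a C1qa UMI alone. Ccr2, the receptor for Ccl2 on monocytes, was at 239 CPM in 59 cells and 55.1 CPM in 13. Clec10a and Clec4n, lectin receptors of macrophages and dendritic cells, were at 120 and 7.47 CPM and at 110 and 10.3 CPM. The microglia-type list split evenly, with 4 of 8 higher and a median of 0.25 (0.58 in female-like cells) that turned to −0.29 without the cell with the most UMIs of each gene: P2ry12, a purine receptor of microglia, was at 39.2 CPM in both.

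Core macrophage genes lay closer to their control levels. The median log2 ratio of the 15 macrophage markers was −0.25, with 12 lower and 4 at least 2-fold lower, and it was −0.57 in female-like cells and changed sign to 0.15 with cells thinned to 5000 UMIs and to 0.03 with every cell given equal weight. Lyz2, the lysozyme of myeloid cells, was at 1657 and 559 CPM, whereas Apoe, a lipid carrier, was at 4363 and 3794 CPM and Trem2, a lipid receptor, at 124 and 169 CPM. Of the genes that chose the cells, C1qa was at 712 and 722 CPM and Csf1r at 630 and 433 CPM. C1qc, which was not used to choose them, was at 956 and 905 CPM. All 10 measured complement genes outside the rule genes were lower, 3 at least 2-fold, with C3 furthest at −3.93 and a median of −0.61 (−0.64 in female-like cells). The proliferation list had a median of 0.24 (0.36 in female-like cells), with 20 of 26 genes higher.

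Receptors for prey and microbial products were mostly lower. Of 17 measured phagocytic receptors, 15 were lower in the mutant, 4 at least 2-fold, and 1 was at least 2-fold higher, with a median log2 ratio of −0.56 (−0.70 in female-like cells). Tlr2, which senses bacterial lipoproteins, was at 269 and 111 CPM, and Cd14, a co-receptor for lipopolysaccharide, at 296 and 136 CPM, whereas the Fc receptor Fcgr3 was at 304 and 273 CPM and the scavenger receptor Marco at 5.39 and 18.7 CPM. Lysosomal genes stood near their control levels, with a median of −0.21 that was −0.33 in female-like cells and also turned positive in thinned cells (0.17). Ctsb and Ctsd, lysosomal cathepsins, were at 1873 and 1747 CPM and at 752 and 784 CPM.

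Heat shock genes lay the other way. All 12 genes of the list were higher in mutant C1qa/Csf1r cells, 8 of them at least 2-fold, with a median log2 ratio of 1.56 (2.01 in female-like cells). The list summed to 6002 CPM in the control and 13624 CPM in the mutant. Per cell, it ran from 7.64 through a median of 54.9 to 113 UMIs per 10000 in the control and from 12.7 through 102 to 292 in the mutant. In other filtered cells the same list summed to 7117 and 8632 CPM at a median log2 ratio of 0.33. The list was thus higher in the mutant in both sets of cells, and the difference between the sets was not tested.

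The inducible chaperones showed it most. Hspa1b (chr17:34956436-34959238), an Hsp70 protein that refolds damaged proteins, was at 76.9 CPM in 42 of 98 control cells and 1596 CPM (1521 to 1674) in 32 of 37 mutant cells, a log2 ratio of 4.37. Hspa1a (chr17:34969190-34972156), its near-identical neighbour, was at 119 and 1755 CPM, and reads of these paralogs may have been split between them. Hsph1, an exchange factor for Hsp70, was at 64.6 and 513 CPM, and its co-chaperone Bag3 at 26.2 and 165 CPM. By contrast Hspa8, the constitutive Hsp70, was at 1164 and 1247 CPM. In other filtered cells Hspa1b was at 22.7 and 283 CPM and Hspa1a at 33.9 and 316 CPM. The Hspa1b promoter is shown with capitals on its match to GAANNTTC, the letters of paired heat shock factor sites (RefSeq, GRCm38.p6 chr17:34959239-34959488, minus strand, 250 bases before the start).
Hspa1b: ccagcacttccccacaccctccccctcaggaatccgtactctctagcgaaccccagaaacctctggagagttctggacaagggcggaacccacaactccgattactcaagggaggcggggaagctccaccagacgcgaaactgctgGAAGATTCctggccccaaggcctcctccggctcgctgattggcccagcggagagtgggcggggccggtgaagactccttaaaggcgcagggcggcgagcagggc
The window held 1 match. These letters occurred in 6.69% of all 32851 windows, in 5 of 9 windows of the heat shock list and in 2 of 18 of the chemokine list.

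Hypoxia-linked genes were mostly higher in mutant C1qa/Csf1r cells. Counted without the glycolytic enzymes, 18 of 28 HIF targets were higher in the mutant, 11 of them at least 2-fold, and 2 were at least 2-fold lower, with a median log2 ratio of 0.60. In female-like cells alone the median was −0.12, so the direction of the list depended on which cells were compared. Bnip3, a mitophagy receptor, was at 33.9 and 120 CPM, the glucose transporter gene Slc2a1 at 49.6 and 126 CPM, and Egln3, an oxygen-sensing hydroxylase, at 3.85 and 40.1 CPM. The list summed to 1120 and 1627 CPM in C1qa/Csf1r cells and to 1190 and 3764 CPM in other filtered cells, where 34 of 36 genes were higher at a median of 1.45. The difference between these medians was not tested. Glycolysis genes were higher for 11 of 13, at a median of 0.72 (0.92 in female-like cells).

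Among genes with at least 100 CPM in a library, Klf2, a transcription factor that responds to flow in endothelium and is also expressed in leukocytes, was at 204 and 713 CPM. Hmox1, which degrades heme, was at 223 and 773 CPM, with 297 of its 828 mutant UMIs in 1 cell. Thbs1, a matrix glycoprotein, was lower at 139 and 17.7 CPM, with log2 ratios from −3.45 to −1.73 over the alternatives. Mesenchymal markers also differed in these cells. They summed to 135 CPM in the control, with all 10 detected and Col3a1 the most abundant at 40.4 CPM, and to 10.3 CPM in the mutant, with Dcn, Prrx1, Twist1 and Tcf21 at 0. In other filtered cells these markers summed to 3054 and 878 CPM. The part of mesenchymal RNA in the comparison was not tested.

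Granule genes were lower in mutant Mpo cells. In these cells 9489 genes had at least 20 UMIs, of which 7.07% (671) were at least 2-fold higher in the mutant and 4.62% (438) at least 2-fold lower, with a median log2 ratio of 0.07. All 10 early granule genes were lower in the mutant, 8 at least 2-fold, with a median of −1.80, and the list summed to 7881 CPM in 17 control cells and 2609 CPM in 67 mutant cells. Mpo, which selected the cells, was at 4277 and 2287 CPM. Control cells with 777, 771 and 530 Mpo UMIs held most of the control sum, and the highest mutant cell had 502.

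A few control cells carried much of this. Elane, the neutrophil elastase gene, was at 1263 CPM in the control, from 4 of 17 cells with 402 of 737 UMIs in 1 of them, and at 36.5 CPM in 7 of 67 mutant cells. Ctsg, cathepsin G, was at 697 CPM in 5 control cells and 86.8 CPM in 9 mutant cells. Prtn3, proteinase 3, was more widespread, at 2039 CPM in 10 control cells and 779 CPM in 56 mutant cells, against UMIs in 9.24% and 11% of other filtered cells. S100a8, a calcium-binding protein of maturing granulocytes, had 161 UMIs in 4 control cells and 2 UMIs in 2 mutant cells, a log2 ratio of −8.22 (−11.28 to −6.35), and its partner S100a9 was at 482 CPM in 3 control cells and 7.39 CPM in 1 mutant cell. UMIs of S100a8 and S100a9 thus came mostly from a handful of control cells. Srgn, the granule proteoglycan found in 16 control and 67 mutant cells, was at 2159 and 661 CPM.

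Mast and basophil genes lay the same way, with 5 of 6 at least 2-fold lower and a median of −2.16, which was −0.90 without the cell with the most UMIs of each gene. Cpa3 was at 362 CPM in 8 control cells and 116 CPM in 18 mutant cells, and Gata2, a factor of progenitors and mast cells, at 297 and 70.2 CPM. Il13 and Gzmb, a cytokine and a granule protease, were at 139 and 3.69 CPM and at 199 and 20.8 CPM, and the log2 ratio of Gzmb ran from −7.21 to −3.26 over the alternatives. Chrm3 and Eda, also far lower in the mutant, came almost wholly from 1 control cell each, which held 85 of 85 and 71 of 73 UMIs, and without its top cell Eda had a log2 ratio of 0.91.

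Of 10 stem and progenitor genes, 7 were higher and 3 lower in mutant Mpo cells, at a median log2 ratio of 0.33, where 5313 of all 9489 genes were higher. Cd34, a surface marker of progenitors, was at 276 and 359 CPM, Adgrg1, an adhesion receptor, at 115 and 262 CPM, and Mecom, a factor of stem cells, at 17.1 and 79.4 CPM, while Myb was lower at 233 and 159 CPM. Lin28b, which blocks let-7 maturation in fetal cells, was at 24.0 CPM in 9 of 17 control cells and 108 CPM in 58 of 67 mutant cells. The proliferation list was higher for 23 of 26 genes at a median of 0.29.

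Among genes with at least 100 CPM in a library, Klf2 had the highest ratio in Mpo cells, at 24.0 CPM (13.1 to 40.3) in 8 of 17 control cells and 836 CPM (798 to 875) in 60 of 67 mutant cells, a log2 ratio of 5.12. Rbpms, an RNA-binding protein, was at 36 and 199 CPM, and the stress factor Atf3 at 20.6 and 119 CPM. Over the alternatives their log2 ratios ran from 2.44 to 3.80 and from 1.57 to 4.07, and that of Hspa1b from 2.64 to 4.54. Heat shock genes were higher for 11 of 12, at a median of 1.10, with Hspa1b at 110 and 702 CPM and Hsph1 at 89.1 and 428 CPM. HIF targets had a median of 0.35 (0.20 to 0.96 over the alternatives), with 18 of 26 higher. Chemokines were scarce here, summing to 992 and 295 CPM, and 5 of 6 measured were at least 2-fold lower. Endothelial markers, which Mpo cells shared in part, summed to 166 CPM in the control with Cldn5 at 0 and to 284 CPM in the mutant with all 10 detected, led by Egfl7 at 117 and 199 CPM. Cardiomyocyte markers summed to 13.7 CPM in the control, with Myh7, Nppa, Nkx2-5, Myl3, Tnni3 and Ryr2 at 0, and to 272 CPM in the mutant with all 10 detected. Their most abundant gene, Myl4, had 116 of its 134 mutant UMIs in 1 cell. Neuron markers summed to 39.4 and 120 CPM, and the gene with the highest ratio of all, at 5.30 (2.80 to 10.61) from 1 control and 146 mutant UMIs, was the troponin gene Tnni1. In other filtered cells the median log2 ratios of the endothelial, cardiomyocyte and neuron lists were 1.69, 1.11 and 0.64. The part of RNA from these other cell types in the differences was not tested.

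**Figure D5:**
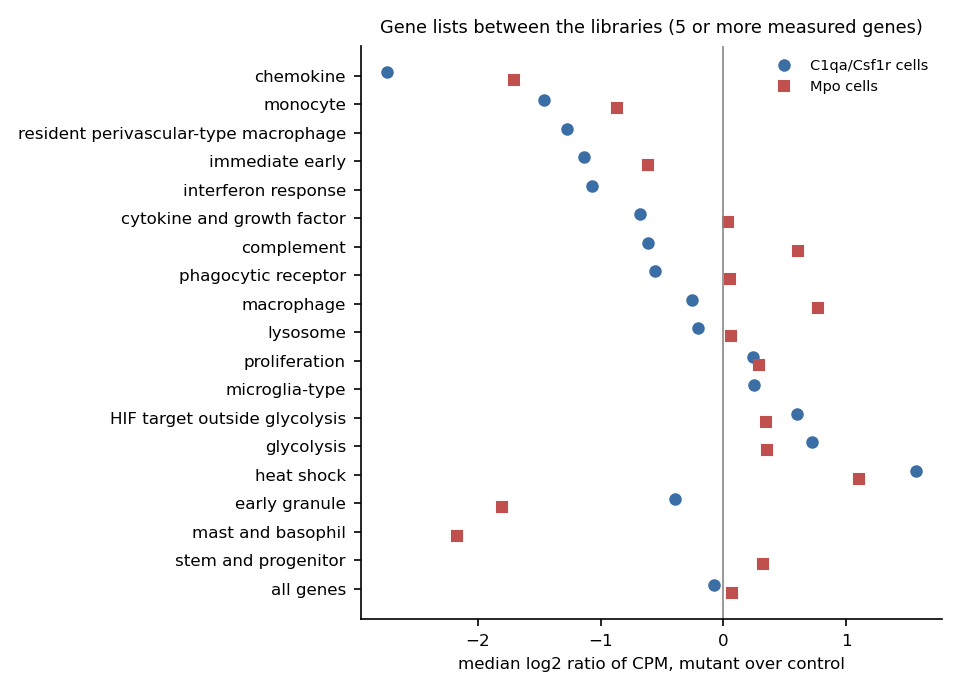
Median log2 ratio of mutant over control (x axis) for each gene list, in C1qa/Csf1r cells and in Mpo cells. In C1qa/Csf1r cells the chemokine list lies at −2.74 and the heat shock list at 1.56, and in Mpo cells the early granule list lies at −1.80.

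Globin was low in members. No member had globin at 5% or more of its UMIs, for which a floor of 3 cells allows a share of up to 1.83% in the control and 2.03% in the mutant, and the highest globin content of a member was 0.100% and 0.0465%. Among other filtered cells it reached 17.5% and 67.9%. Any globin UMI was found in 29 of 98 control C1qa/Csf1r cells (29.6%) and 24 of 37 mutant ones (64.9%), beside 19.97% and 44.9% of other filtered cells. In Mpo cells it was found in 6 of 17 control cells (35.3%) and 22 of 67 mutant cells (32.8%), so the share was higher in the mutant library in C1qa/Csf1r cells and in the rest but not in Mpo cells. By gene, the adult Hbb-bs led in control C1qa/Csf1r cells with 43 UMIs, 26 of them in 1 cell, against 3 in the mutant, while the embryonic Hbb-y had 15 and 21 and Hba-x 6 and 15.

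The remaining 49 control and 44 mutant members mixed blood-cell types. At least 3 macrophage markers were found in 11 control and 16 mutant cells. At least 3 early granule markers were found in 38 and 31 of them and at least 3 monocyte markers in 20 and 9, beside 84.7% and 40.8% of control C1qa/Csf1r cells. In other filtered cells the early granule share was 35.2% in the control and 31.9% in the mutant. The monocyte share there was 6.11% and 5.51%. At least 3 mast and basophil markers were found in 15 control and 8 mutant cells, at least 3 dendritic and MHC class II markers in 13 and 5, and at least 3 lymphoid markers in 14 and 7. Cpa3 was at 1706 and 351 CPM, H2-Aa, an MHC class II chain, at 289 and 65.2 CPM, and Il7r, the interleukin 7 receptor of lymphoid progenitors, at 210 and 102 CPM. At least 3 stem and progenitor markers were found in 27 and 26 cells, and at least 3 erythroid markers other than globin in 12 and 8. Of the 12 erythroid genes, 3 had at least 20 UMIs in these members. Except for the early granule and monocyte lists, the share in other filtered cells is not given here, so these counts alone do not fix a cell type. The megakaryocyte list ran the other way, in 1 control and 5 mutant cells, with Pf4 at 0.773 and 247 CPM and Gp9, a platelet glycoprotein, at 0.773 and 82.3 CPM. The macrophage list, which holds Pf4, stood at 53.0 UMIs per 10000 in 1 mutant remaining member and at 21.7 in another. In every other mutant remaining member this list stood at 10.9 or less. The Pf4 difference may thus rest on few cells, and its UMIs per cell are not given here.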

How the data were processed

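Libraries were 10x Genomics, and per the labels the authors processed them with Cell Ranger 7.1.0 on mm10. The deposited values were whole-number UMI counts per gene and barcode. The annotation release and whether intronic reads were counted are not given in the sources used here. The study's limits were applied to cells, above 2000 and below 9000 genes with mitochondrial UMIs under 10%. Members and gene lists were chosen with earlier results of these data known. C1qa/Csf1r cells had at least 2 UMIs of both genes summed and at least as many as of Mpo. Mpo cells had at least 2 Mpo UMIs and more than of the other pair. UMIs were summed by subclass and library and given as CPM with exact Poisson intervals. Log2 ratios had conditional exact binomial intervals, and a gene at 0 was set to 3 counts. Lists used genes with at least 20 UMIs over both libraries. Named genes were up to 4 list members with the most UMIs, members past 2-fold and, beyond the lists, the largest ratios among genes with at least 100 CPM and, between genotypes, an interval beyond 1.5-fold. Doublets were not removed: Scrublet marked 162 control (3.60%) and 230 mutant barcodes (4.29%), of which 16 and 9 were members. Scripts ran in Python 3.11.15 with scanpy 1.11.5, and edgeR 4.0.16 gave an alternative scaling. They were tested on simulated data. Alternatives covered scaling, depth, filters, cell rules, doublets, sex and single cells.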

Additional observations from a re-analysis of the deposited data

Results flagged for a closer look

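Prtn3, the proteinase 3 gene, differed between the libraries in opposite directions in the subclasses. Mutant over control, its log2 ratio was 3.32 in C1qa/Csf1r cells, where 54 of 132 mutant UMIs lay in 1 cell, and −1.39 in Mpo cells. Actc1, the cardiac actin gene, did so too, at −2.08 in C1qa/Csf1r cells and 2.09 in Mpo cells, where 478 of 536 mutant UMIs lay in 1 cell. With 1 library per genotype, neither difference between subclasses was tested. Outside the members, 54 filtered cells of the mutant library and 0 of the control carried at least 4 of 10 liver markers.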

How the results depend on the processing

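No paired analysis was possible because each genotype had 1 library. Ratios rest on 17 to 98 cells per subclass and library, so genes of few UMIs have wide intervals. Keeping only C1qa/Csf1r cells with a C1qa UMI, and leaving out the cell with the most UMIs of each gene, were alternatives chosen after seeing the data, and the cause of each change below was not tested except where fewer genes or cells entered by construction. Over all alternatives, 269 list medians and 228 ratios of named genes moved by less than the margin set for them, 19 and 59 by more, and 6 and 1 changed sign from a value whose margin lay clear of 0.

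Members were 4.96% of control and 3.27% of mutant filtered cells with at least 6 of the 10 genes, where C1qa/Csf1r cells were 70.3% of control members. They were 3.86% and 3.01% of every deposited barcode, and 4.99% and 3.32% without members holding 4 markers of another cell type. Beside the shares in members thinned after selection, given above, the C1qa/Csf1r share of members lay over the alternatives at 52.4 to 70.3% in the control and 21.6 to 32.5% in the mutant, and the Mpo share 6.80 to 12.3% and 38.5 to 50.9%.

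The minimum of UMIs per gene set the counts of genes past 2-fold. In C1qa/Csf1r cells, 4043 were higher and 1647 lower with a minimum of 1 UMI, 129 and 469 with 50, and 67 and 269 with 100. In Mpo cells these counts were 1044 and 5099, 301 and 185, and 126 and 77. With cells thinned to 5000 UMIs, 508 genes were lower in C1qa/Csf1r cells and 179 in Mpo cells. As a mean over cells, 477 were higher in C1qa/Csf1r cells and 1036 in Mpo cells. Female-like cells gave 1460 lower in C1qa/Csf1r cells. Without the top cell of each gene, which removes a larger share of the smaller library, 153 were higher in C1qa/Csf1r cells, and 1190 higher and 162 lower in Mpo cells. That setting moved the median log2 ratio of all genes to −0.20 and 0.32.

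The chemokine median in C1qa/Csf1r cells was −3.08 with C1qa-positive cells, −1.52 with a minimum of 1 UMI and −3.17 without the top cells. The heat shock median was 2.01 in female-like cells and 1.36 with a minimum of 100 UMIs, and the HIF median was −0.12 in female-like cells. The sign changed for the macrophage median (0.028 as a mean over cells, 0.15 thinned), the lysosome median (0.043 and 0.17), the monocyte median (0.070 with C1qa-positive cells), the microglia-type median (−0.29 without the top cells, −0.0012 with minimums of 50 and 100 UMIs), the HIF median and Eda in Mpo cells (0.91 without its top cell). The mast and basophil median in Mpo cells was −0.90 without the top cells. The early granule median in Mpo cells stayed between −2.08 and −1.53. Leaving out the top cell removed only 1 cell per gene, so that setting could not show dependence on several control cells together. Log2 ratios of other named genes that moved by over 1.5-fold kept their direction: in C1qa/Csf1r cells Ccl2 (−4.98 to −4.03), Ccl7 (−8.15 to −6.19), Clec10a (−4.58 to −3.30), Clec4n (−4.00 to −2.66), Ier3 (−3.46 to −2.32), Bnip3 (1.39 to 2.70), Hmox1 (1.38 to 2.49) and Klf2 (1.04 to 1.90), and in Mpo cells S100a8 (−9.12 to −7.09), S100a9 (−7.38 to −5.08), Il13 (−6.42 to −3.72), Ctsg (−3.51 to −2.32), Hspa1a (2.59 to 4.26), Hspb1 (2.37 to 5.60) and Lin28b (2.14 to 2.76). Chrm3 in Mpo cells ran from −8.41 to −3.48, but all 85 of its control UMIs lay in 1 cell. Its direction thus rested on that cell.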

Other observations

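Of 22 measured transcription factors of myeloid cells, 16 were lower in mutant C1qa/Csf1r cells, 2 of them at least 2-fold, at a median log2 ratio of −0.23, beside 5705 of all 10087 genes lower. Nr4a1, an orphan receptor induced early after stimulation, was at 803 CPM in the control and 262 CPM in the mutant, and Zeb2, a factor of macrophage identity, at 742 and 429 CPM. Bhlhe41, at 3.85 and 29.9 CPM, and Klf2 were the 2 at least 2-fold higher. Maf and Runx1 were closer, at 372 and 355 CPM and at 353 and 294 CPM. In Mpo cells, Cebpe, a factor of late granulocyte maturation, was at 48.0 and 15.2 CPM, Irf8, a monocyte and dendritic cell factor, at 10.3 and 57.7 CPM, and Runx1 at 310 and 319 CPM.

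Of 26 cytokine and chemokine receptors in C1qa/Csf1r cells, 2 were at least 2-fold lower, Ccr2 and Cxcr4 (29.2 and 5.60 CPM), and 0 at least 2-fold higher. Cx3cr1, the fractalkine receptor of macrophages, was at 380 and 475 CPM. Among heme and iron genes the ferritin heavy chain gene Fth1 was at 4463 and 6349 CPM, and Spic, a factor of heme-clearing macrophages, at 1.15 and 16.8 CPM from 3 and 18 UMIs. Of 13 PI3K subunits and brakes in C1qa/Csf1r cells, 5 were higher and 8 lower, at a median log2 ratio of −0.22. Inpp4b, a lipid phosphatase, was at 51.9 and 14.9 CPM in C1qa/Csf1r cells and at 142 and 41.5 CPM in Mpo cells, and Pik3cg, the leukocyte catalytic subunit, at 68.5 and 31.7 CPM in C1qa/Csf1r cells.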
